A study of Mus musculus with 12 samples.

Results

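Lysosomes are the acidic compartments in which cells break down proteins, lipids and glycans. An ATP-driven proton pump, the V-ATPase, acidifies them, and its cytosolic V1 sector hydrolyses ATP while the membrane V0 sector carries the protons. In the acid lumen, cathepsins cut proteins and other hydrolases cut lipids and glycans, while membrane proteins such as LAMP1, LAMP2 and NPC1 line the organelle and export its products. In liver, hepatocytes use lysosomes for autophagy and lipoprotein breakdown, and Kupffer cells, the resident macrophages, use them to digest what they engulf. Many of these genes carry a short element that is bound by TFEB, a transcription factor of lysosomal genes.

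Described here are 37 genes of this machinery, chosen by name with earlier results of these data known, in bulk RNA-seq of 12 male mouse livers. They comprise 13 proton pump subunits, 9 cathepsins and 15 other lysosomal proteins, and all 37 were found among the 20093 genes listed in both of the deposited count tables. All mice carried a floxed Elavl1 gene, which encodes the RNA-binding protein HuR, on a C57BL/6N background, and were 4 to 6 months old when injected according to the labels. WT mice received AAV8-Tbg-null and HuRHep-/- mice AAV8-Tbg-Cre, in which the Tbg promoter restricts Cre to hepatocytes, so that other liver cells keep the gene. The study's methods describe an albumin-Cre cross and a younger age instead. Each genotype was sampled on chow, or after 16 weeks of a diet with 40 kcal% fat, 2% cholesterol and 20 kcal% fructose (HFCF), with 3 livers per group. The count tables were deposited separately for the diets, so diet and table cannot be told apart.

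The deposited counts summed to between 30071731 and 35949203 per library, so that counting error is small for all members but Ctsk (7 to 71 counts per library) and Atp6v0d2 (45 to 263 counts). Levels below are CPM, counts relative to the scaled total of each library, with one scaling for all 12. Differences are log2 fold changes with their SE from limma, and a gene was called when its p, adjusted by Benjamini-Hochberg over every gene in the fit, was 0.05 or lower. The labels number the 3 livers of a group without naming animals, so p-values measure the spread between these samples. Elavl1, the deleted gene, went against the labels. It stood at 30.9, 29.3 and 30.99 CPM in chow WT and at 42.8, 39.2 and 38.8 CPM in the chow livers labelled HuRHep-/- (log2 fold change 0.41 ± 0.07 (SE), adjusted p = 0.022, limma). In HFCF livers it stood at 23.9, 24.1 and 26.97 CPM in WT and at 32.4, 32.2 and 34.2 CPM in those labelled HuRHep-/- (0.38 ± 0.07 (SE), adjusted p = 0.0327, limma). Every library labelled HuRHep-/- was above the WT libraries of its diet, so the direction of each genotype difference below rests on labels that the deleted gene does not bear out. The call depended on single libraries, and the adjusted p of Elavl1 reached 0.106 without replicate 2 of the chow livers labelled HuRHep-/- and 0.121 without replicate 1 of the HFCF livers of that label, with log2 fold changes of 0.43 and 0.40. In such bulk RNA, fewer cells of a type and less RNA per cell cannot be told apart. The 12 hepatocyte markers were all present, with a summed level from 99800 to 121900 CPM in chow WT down to 65020 to 69550 CPM in HFCF livers labelled HuRHep-/-.

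The start regions of these genes were searched for the E-box CACGTG and for its longer palindrome TCACGTGA, which contains it and is the core of the element bound by TFEB and its relatives. Both read the same on either strand. RefSeq promoter windows of GRCm38.p6, from 250 bases before to 50 bases after the start, were used for 29 of the 37 members, and none for Atp6v0d2, Atp6v1b2, Atp6v1c1, Atp6v1g1, Atp6v1h, Ctsb, Ctsh and Npc1. CACGTG was present in 10 of those 29 genes (34.5%), in 23 of 84 other lysosomal genes (27.4%) and in 2187 of all 27025 genes with a window (8.1%). TCACGTGA was present in 5 of 29 members (17.2%), in 11 of 84 other lysosomal genes (13.1%) and in 304 of 27025 genes (1.1%). These letters are a description of the windows and do not show binding. Of the 5 windows below, 4 are shown because they hold TCACGTGA, and that of Lamp1 because it holds 4 copies of CACGTG, with the motif in capitals and the gene's own strand from 5′ to 3′.
Ctsd (chr7:142387778-142388077, minus strand): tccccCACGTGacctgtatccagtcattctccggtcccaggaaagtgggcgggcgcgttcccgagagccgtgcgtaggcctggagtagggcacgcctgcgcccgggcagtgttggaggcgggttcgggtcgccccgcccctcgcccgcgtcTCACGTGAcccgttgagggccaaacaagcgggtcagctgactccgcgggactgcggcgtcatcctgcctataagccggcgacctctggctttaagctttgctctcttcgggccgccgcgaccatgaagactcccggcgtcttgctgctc
Ctsa (chr2:164833523-164833822, plus strand): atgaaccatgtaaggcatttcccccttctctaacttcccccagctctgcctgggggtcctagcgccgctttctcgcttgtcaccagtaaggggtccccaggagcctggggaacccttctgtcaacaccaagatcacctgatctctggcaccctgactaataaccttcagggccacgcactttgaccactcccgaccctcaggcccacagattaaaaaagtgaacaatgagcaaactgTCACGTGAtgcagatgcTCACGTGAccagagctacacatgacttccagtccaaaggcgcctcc
Atp6v0d1 (chr8:105566015-105566314, minus strand): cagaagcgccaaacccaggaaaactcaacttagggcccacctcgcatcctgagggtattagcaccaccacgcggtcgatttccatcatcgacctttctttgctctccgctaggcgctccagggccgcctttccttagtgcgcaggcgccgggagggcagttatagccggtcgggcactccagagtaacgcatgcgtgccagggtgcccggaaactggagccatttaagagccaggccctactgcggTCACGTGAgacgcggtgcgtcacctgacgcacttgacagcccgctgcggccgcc
Mcoln1 (chr8:3500269-3500568, plus strand): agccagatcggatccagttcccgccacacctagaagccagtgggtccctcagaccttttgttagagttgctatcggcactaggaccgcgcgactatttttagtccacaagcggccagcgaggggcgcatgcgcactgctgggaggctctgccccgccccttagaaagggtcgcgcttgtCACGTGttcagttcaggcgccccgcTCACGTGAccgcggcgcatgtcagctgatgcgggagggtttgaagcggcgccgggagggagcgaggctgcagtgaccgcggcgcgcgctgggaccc
Lamp1 (chr8:13158911-13159210, plus strand): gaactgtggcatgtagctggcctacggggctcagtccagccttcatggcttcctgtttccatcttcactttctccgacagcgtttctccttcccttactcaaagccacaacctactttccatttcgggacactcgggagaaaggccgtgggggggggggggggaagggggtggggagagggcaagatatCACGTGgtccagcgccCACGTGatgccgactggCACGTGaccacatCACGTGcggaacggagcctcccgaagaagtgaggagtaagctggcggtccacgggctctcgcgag
Ctsd holds one copy of each form, and Ctsa holds 2 copies of the palindrome. The remaining members with a match were Atp6v1a with TCACGTGA, and Atp6v0b, Ctsl, Gaa and Lgmn with CACGTG alone. Of the printed genes, Ctsd rose with HFCF feeding, Ctsa and Atp6v0d1 fell in livers labelled HuRHep-/-, and Lamp1 and Mcoln1 were not called, nor was Atp6v1a.

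Levels of different genes were compared as CPM per kb of exon, with all annotated exons of a gene merged. That length can be well above the longest transcript (9746 against 4829 bases for Atp6v1h), so close ranks depend on the annotation. Lamp1, which encodes an abundant glycoprotein of the lysosomal membrane, was the highest member at 250.5 CPM per kb on average over the 12 libraries (range 221 to 274), followed by Psap, the precursor of the saposins that assist sphingolipid breakdown, at 180.3 CPM per kb. Among the cathepsins, Ctsz (169.6 CPM per kb) and Ctsd (166 CPM per kb) were highest, and Ctsk, the collagen-degrading cathepsin of osteoclasts, was lowest at 0.626 CPM per kb. The median over 9 cathepsins was 53.0 CPM per kb and that over 13 pump subunits was 8.24 CPM per kb. The subunits fell into a higher tier of 6 genes from 27.2 CPM per kb (Atp6v1e1) to 52.7 CPM per kb (Atp6v0c, the proton-carrying ring) and a lower tier of 6 genes from 5.18 CPM per kb (Atp6v1h) to 8.24 CPM per kb (Atp6v1b2, part of the ATP-hydrolysing head). Below both was Atp6v0d2, a subunit isoform of osteoclasts and macrophages, at 1.03 CPM per kb, against 44.8 CPM per kb for Atp6v0d1, its widely expressed counterpart.

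**Figure D1:**
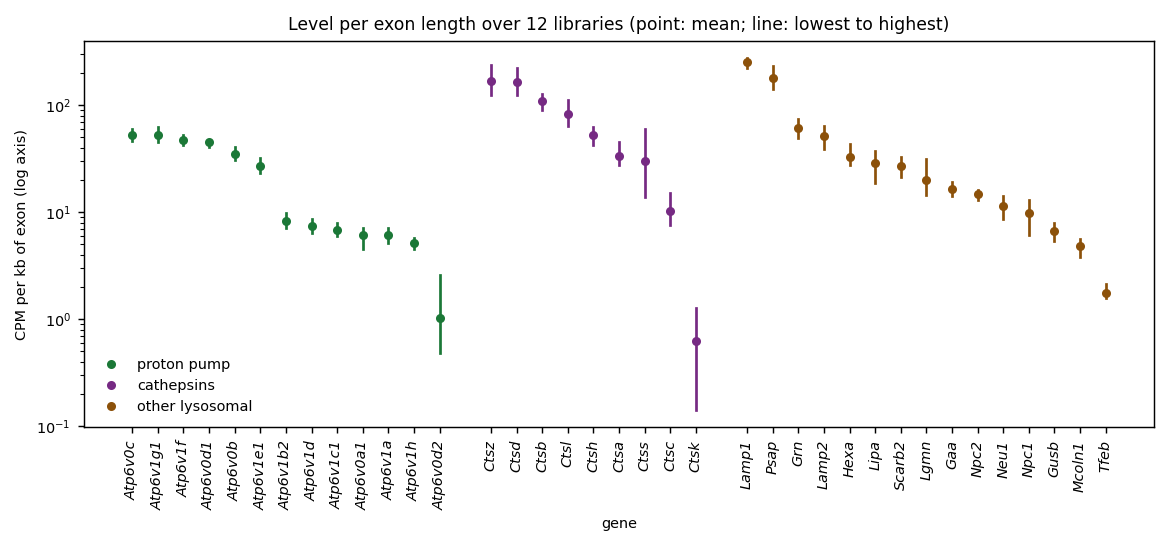
Mean level per exon length of each of the 37 genes on a log axis, with a line from the lowest to the highest of the 12 libraries. Lamp1 is highest at 250.5 CPM per kb, and Ctsk (0.626 CPM per kb) and Atp6v0d2 (1.03 CPM per kb) are lowest and have the widest ranges.

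HFCF feeding was accompanied by rises and falls among the cathepsins and the other lysosomal proteins. In WT livers, 7 of the 37 members rose and 5 fell, against 11.3% and 12.9% of the 14535 genes tested. In livers labelled HuRHep-/-, 9 rose and 11 fell, against 19.7% and 19.1% of the genes, and under upper-quartile scaling 10 rose and 7 fell. Of the 9 cathepsins, 4 rose and 2 fell in WT, and 4 rose and 5 fell in livers labelled HuRHep-/-. Of the 15 other proteins, 3 rose and 3 fell in WT, and 4 rose and 4 fell in livers labelled HuRHep-/-. Of the 13 pump subunits, 0 were called in WT by limma (2 at an unadjusted p under 0.05, a threshold at which all genes were not counted, and 0 with voom weights), and 1 rose and 2 fell in livers labelled HuRHep-/-. The 2 subunits in WT were Atp6v0a1 and Atp6v1e1, and some alternatives called them. For Atp6v0a1 these were upper-quartile scaling (0.36, adjusted p = 0.0391), a minimum of 10 counts in every library (0.33, adjusted p = 0.049) and the fit without chow WT replicate 2 (0.43, adjusted p = 0.0138, limma). Atp6v1e1 was called lower without chow WT replicate 2 (-0.33, adjusted p = 0.0081, limma). The median log2 fold change over the members was -0.01 in WT and -0.05 in livers labelled HuRHep-/-, beside 0.01 and 0.002 over all genes. When a 1.5-fold change and 10 counts in each group were required as well (differentially expressed genes, DEGs), 3 members rose and 0 fell in WT, where 6.14% of genes rose and 3.24% fell, and 4 rose and 2 fell in livers labelled HuRHep-/-, where 14.2% rose and 4.91% fell.

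**Figure D2:**
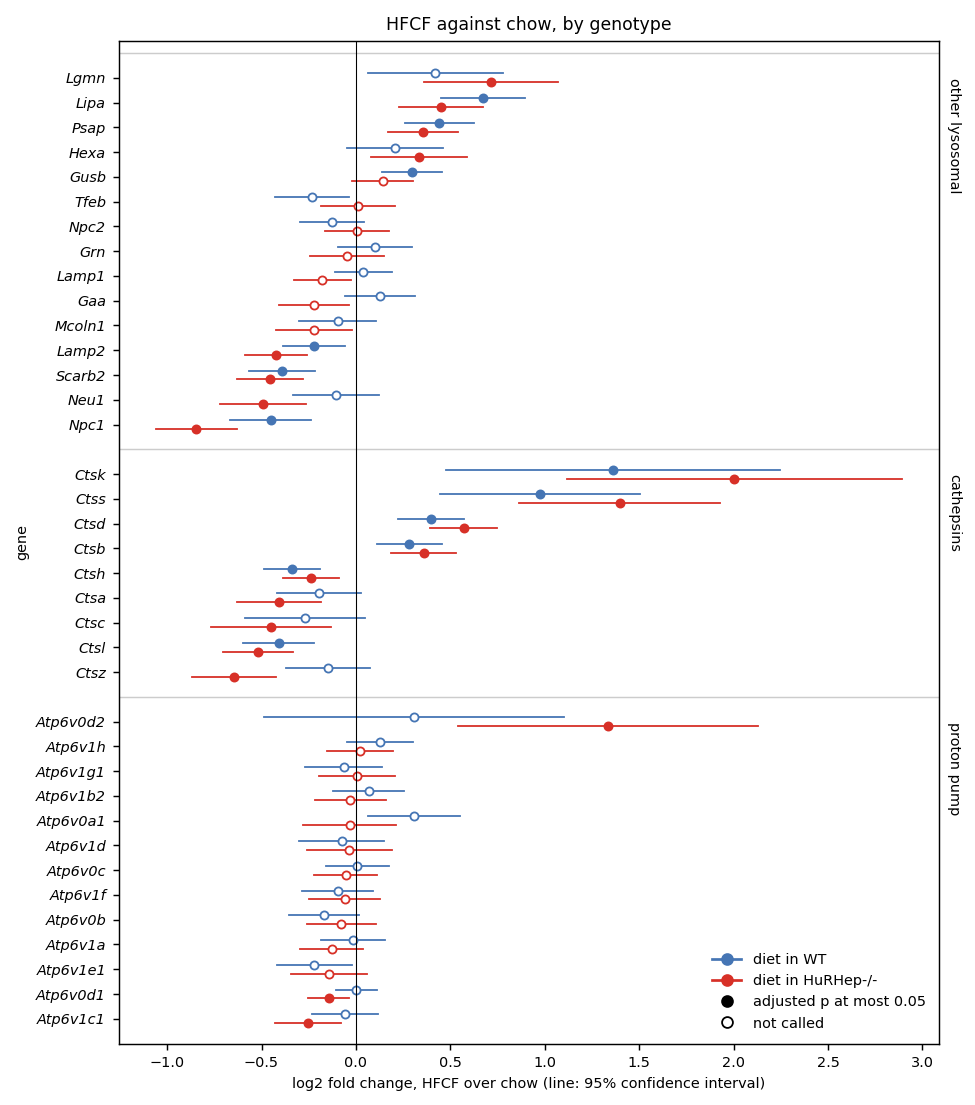
Log2 fold change of HFCF over chow with its 95% confidence interval for each of the 37 genes, in WT livers and in livers labelled HuRHep-/-, with called genes as filled points. Ctsk, Ctss, Ctsd and Ctsb lie to the right of 0 and Ctsl and Ctsh to the left in both genotypes, while the intervals of most pump subunits span 0.

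The cathepsins that rose in both genotypes were Ctsk, Ctss, Ctsd and Ctsb. Ctss encodes the elastin-cutting cathepsin that trims the MHC class II invariant chain in antigen-presenting cells. Its level was 18.9, 23.98 and 19.2 CPM in chow WT and 38.9, 27.8 and 61.4 CPM in HFCF WT livers (log2 fold change 0.98 ± 0.24 (SE), adjusted p = 0.0145, limma). With the other genotype label it went from 26.1, 34.3 and 22.3 CPM on chow to 80.5, 62.7 and 72.3 CPM on HFCF (1.40 ± 0.24 (SE), adjusted p = 0.00142, limma). No HFCF library overlapped the chow libraries of its genotype, although HFCF WT replicate 2 came close to the chow range, and without chow WT replicate 1 the adjusted p in WT was 0.0544. Ctsk stood at 0.362, 0.635 and 0.360 CPM in chow WT and 0.976, 0.855 and 1.81 CPM in HFCF WT (1.36 ± 0.41 (SE), adjusted p = 0.0311, limma). Ctsk in livers labelled HuRHep-/- was at 0.609, 0.495 and 0.215 CPM on chow and 1.70, 1.43 and 1.91 CPM on HFCF (2.00 ± 0.41 (SE), adjusted p = 0.00314, limma). The diets did not overlap for Ctsk either. In WT its log2 fold change lost the call without chow WT replicate 1 (1.23, adjusted p = 0.102) or replicate 3 (1.23, adjusted p = 0.0977), and without HFCF WT replicate 1 (1.48, adjusted p = 0.055) or replicate 3 (1.04, adjusted p = 0.121).

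Ctsd, the main aspartic protease of the lysosome, and Ctsb, an abundant cysteine protease, rose less in fold but from far higher levels. Ctsd was at 335, 344 and 379 CPM in chow WT and 454, 422 and 522 CPM in HFCF WT (0.40 ± 0.08 (SE), adjusted p = 0.00539, limma). The Ctsd level in livers labelled HuRHep-/- was 306, 291 and 293 CPM on chow and 451, 437 and 434 CPM on HFCF (0.57 ± 0.08 (SE), adjusted p = 0.000501, limma). Every HFCF library was above every chow library of either genotype. Of the 31-base words of the longest Ctsd transcript, 37.1% also occur in other annotated genes, most in the overlapping Gm49369, so reads may have been divided between them. Ctsb was at 609, 543 and 599 CPM in chow WT and 655, 700.2 and 777 CPM in HFCF WT (0.28 ± 0.08 (SE), adjusted p = 0.0244, limma). Livers labelled HuRHep-/- had Ctsb at 623, 601 and 566 CPM on chow and 773, 773 and 748 CPM on HFCF (0.36 ± 0.08 (SE), adjusted p = 0.00492, limma). The lowest HFCF library was again above the highest chow library, yet the WT difference in Ctsb was not called without chow WT replicate 2 (0.23, adjusted p = 0.066) or replicate 3 (0.30, adjusted p = 0.0508), or without HFCF WT replicate 3 (0.22, adjusted p = 0.0953).

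Ctsl and Ctsh fell in both genotypes, and Ctsz, Ctsc and Ctsa were called lower in livers labelled HuRHep-/- alone. Ctsl, a broad-acting cysteine protease, was at 628, 522 and 572 CPM in chow WT and 420, 461 and 413 CPM in HFCF WT (-0.41 ± 0.09 (SE), adjusted p = 0.00615, limma). Among livers labelled HuRHep-/- it fell from 726, 635 and 621 CPM to 459, 466 and 456 CPM (-0.52 ± 0.09 (SE), adjusted p = 0.00109, limma). The chow and HFCF libraries of either genotype were separate for Ctsl. Ctsh, an aminopeptidase, was at 279, 240.4 and 259.5 CPM in chow WT and 192, 217 and 208 CPM in HFCF WT (-0.34 ± 0.07 (SE), adjusted p = 0.00538, limma). Ctsh in livers labelled HuRHep-/- was at 267, 269 and 257 CPM on chow and 230.5, 221 and 220.4 CPM on HFCF (-0.24 ± 0.07 (SE), adjusted p = 0.0176, limma). That smaller difference was not called without replicate 2 of the chow (-0.22, adjusted p = 0.0536) or of the HFCF livers labelled HuRHep-/- (-0.23, adjusted p = 0.0514), nor under upper-quartile scaling (-0.16, adjusted p = 0.0691, limma).

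Ctsz, a carboxypeptidase, was at 339.6, 288 and 301 CPM in chow livers labelled HuRHep-/- and 180.1, 187 and 229 CPM in HFCF livers of that label (-0.64 ± 0.10 (SE), adjusted p = 0.000873, limma), the only cathepsin with a fall that passed the fold criterion. In WT it stood at 274, 223 and 245 CPM on chow and 223, 225 and 218 CPM on HFCF, with overlapping groups (-0.15 ± 0.10 (SE), adjusted p = 0.303, limma). Ctsc, which activates granule serine proteases in immune cells, was at 88.3, 81.6 and 61.5 CPM on chow and 68.4, 52.9 and 48.1 CPM on HFCF in livers labelled HuRHep-/- (-0.45 ± 0.15 (SE), adjusted p = 0.0301, limma), with overlap. Without replicate 1 or 2 of the chow livers labelled HuRHep-/-, or replicate 2 or 3 of the HFCF ones, the log2 fold change of Ctsc was -0.35, -0.40, -0.41 and -0.34, with adjusted p-values of 0.103, 0.0913, 0.0861 and 0.111. The Ctsc call was also lost under upper-quartile scaling (adjusted p = 0.0804) and in the 6 libraries of that label alone (adjusted p = 0.0637, limma). In WT, Ctsc was at 55.3, 61.1 and 52.3 CPM on chow and 45.5, 43.6 and 50.7 CPM on HFCF (-0.27 ± 0.15 (SE), adjusted p = 0.198, limma). Ctsa, the protective protein that stabilises the beta-galactosidase and neuraminidase complex, was lower in livers labelled HuRHep-/- (-0.41 ± 0.10 (SE), adjusted p = 0.00887, limma). In WT, Ctsa was at 155, 154 and 169 CPM on chow and 147, 133 and 138 CPM on HFCF, also lower without overlap but not called (-0.19 ± 0.10 (SE), adjusted p = 0.184, limma). The summed level of the 9 cathepsins was 2111 to 2356 CPM in chow WT, 2288 to 2590 CPM in chow livers labelled HuRHep-/-, 2176 to 2390 CPM in HFCF WT and 2334 to 2376 CPM in HFCF livers labelled HuRHep-/-, so the sums of all 4 groups overlapped.

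**Figure D3:**
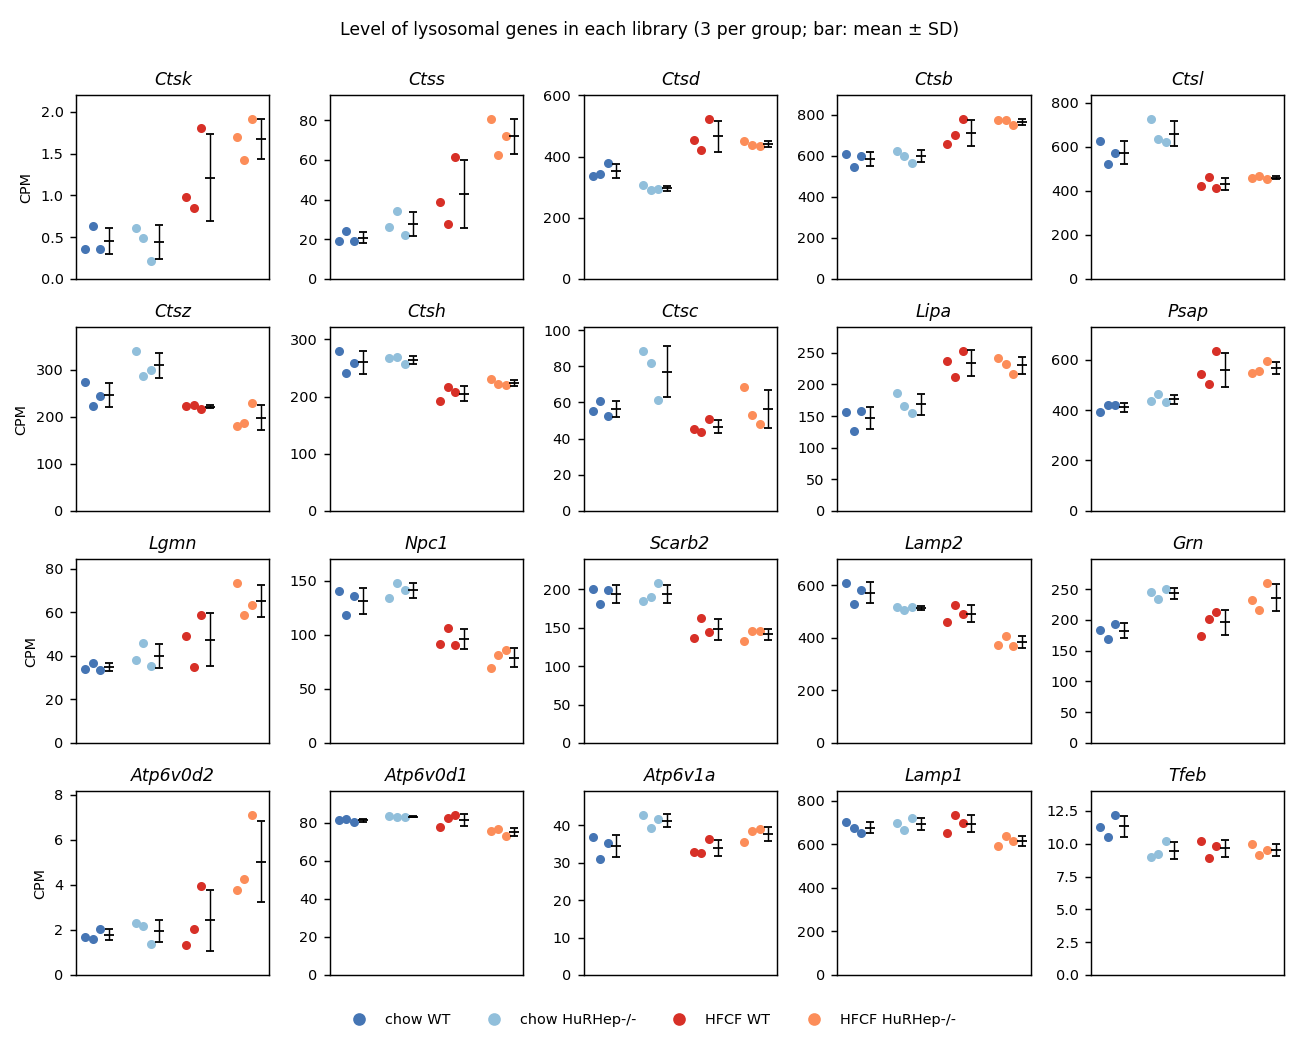
Level in CPM of 20 of the genes in each of the 12 libraries, by group, with the mean and SD of the 3 livers beside the points; each axis starts at 0. Ctss and Ctsk are highest in HFCF livers, Npc1, Scarb2 and Ctsl are lower there, and Atp6v1a and Lamp1 were not called.

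Of the other lysosomal proteins, Lipa and Psap rose and Npc1 and Scarb2 fell in both genotypes, and Lamp2 was called lower in both, in WT with a call that most alternatives ended. Lipa, the acid lipase that frees cholesterol and fatty acids from lipoprotein lipids, was at 156, 127 and 158 CPM in chow WT and 237, 212 and 252 CPM in HFCF WT (0.67 ± 0.10 (SE), adjusted p = 0.00137, limma). The Lipa level in livers labelled HuRHep-/- was 186, 165 and 154 CPM on chow and 242, 232 and 216 CPM on HFCF (0.45 ± 0.10 (SE), adjusted p = 0.00559, limma). Psap was at 391, 421 and 420.4 CPM in chow WT and 544, 502 and 633 CPM in HFCF WT (0.44 ± 0.08 (SE), adjusted p = 0.0041, limma). For livers labelled HuRHep-/-, Psap was at 434, 462 and 431 CPM on chow and 548, 556 and 594 CPM on HFCF (0.35 ± 0.08 (SE), adjusted p = 0.00694, limma). Chow and HFCF libraries did not overlap for either gene, in either genotype.

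Npc1, the membrane transporter that exports cholesterol from the lysosome, fell in both genotypes. It was at 141, 118 and 136 CPM in chow WT and 91.6, 107 and 90.4 CPM in HFCF WT (-0.45 ± 0.10 (SE), adjusted p = 0.0076, limma). In livers labelled HuRHep-/- it was at 135, 148 and 141 CPM on chow and 69.05, 81.5 and 86.03 CPM on HFCF (-0.85 ± 0.10 (SE), adjusted p = 0.000217, limma), the largest fall among the 37 members in that comparison. Npc2, the soluble carrier that hands cholesterol to NPC1, was not called (-0.13, adjusted p = 0.254 in WT and 0.01, adjusted p = 0.959 in livers labelled HuRHep-/-, limma). Scarb2, the membrane receptor that delivers glucocerebrosidase, was at 201, 180.3 and 199.6 CPM in chow WT and 136, 163 and 144 CPM in HFCF WT (-0.39 ± 0.08 (SE), adjusted p = 0.0056, limma). Livers labelled HuRHep-/- had 184, 190 and 208 CPM of Scarb2 on chow and 133, 146 and 145 CPM on HFCF (-0.46 ± 0.08 (SE), adjusted p = 0.00145, limma). Groups on the 2 diets were separate for Npc1 and Scarb2 in either genotype.

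Lamp2, the membrane protein needed for autophagosome fusion and chaperone-mediated autophagy, was at 607, 529.6 and 580.3 CPM in chow WT and 459, 523 and 491 CPM in HFCF WT (-0.22 ± 0.07 (SE), adjusted p = 0.0492, limma). That call was marginal and held in 2 of 12 fits that each left out 1 library, with log2 fold changes from -0.28 to -0.17 and adjusted p-values from 0.0244 to 0.171; it was kept only without chow WT replicate 2 or HFCF WT replicate 2. Of 8 further alternatives 1 kept the call of Lamp2 in WT, and the adjusted p was 0.0534 with RLE size factors, 0.0535 with voom weights, 0.0783 with upper-quartile scaling, 0.0723 with no filter on low counts and 0.0532 with a minimum of 10 counts in every library (limma). The level of Lamp2 in livers labelled HuRHep-/- went from 518, 506 and 519 CPM on chow to 374, 408 and 369 CPM on HFCF (-0.42 ± 0.07 (SE), adjusted p = 0.0015, limma). Lamp1 stood at 703, 675 and 651 CPM in chow WT, 654, 733 and 699.8 CPM in HFCF WT, 698, 665 and 719 CPM in chow livers labelled HuRHep-/- and 591, 638 and 614 CPM in HFCF livers of that label, with log2 fold changes for diet of 0.04 in WT (adjusted p = 0.712) and -0.18 in the other genotype (adjusted p = 0.0616, limma).

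Lgmn, Hexa and Neu1 were called in livers labelled HuRHep-/- and Gusb in WT livers. Lgmn, the asparaginyl protease that matures cathepsins, was at 38.2, 46.03 and 35.2 CPM on chow and 73.3, 58.9 and 63.6 CPM on HFCF in livers labelled HuRHep-/- (0.72 ± 0.16 (SE), adjusted p = 0.00585, limma), with no overlap. In WT it was at 33.8, 36.9 and 33.6 CPM on chow and 49.03, 34.8 and 58.6 CPM on HFCF, where replicate 2 stayed in the chow range (0.42 ± 0.16 (SE), adjusted p = 0.0825, limma). Lgmn was called in WT in 1 of 12 fits without 1 library, that without HFCF WT replicate 2 (0.63, adjusted p = 0.00566), and its lowest value was that without HFCF WT replicate 3 (0.25, adjusted p = 0.2905, limma). Neu1, the lysosomal sialidase, was at 52.99, 53.03 and 50.3 CPM on chow and 32.1, 39.2 and 40.2 CPM on HFCF in livers labelled HuRHep-/- (-0.49 ± 0.10 (SE), adjusted p = 0.00395, limma), with no overlap. In WT, Neu1 was at 47.9, 36.6 and 42.6 CPM on chow and 37.4, 41.4 and 38.8 CPM on HFCF, with overlap (-0.10 ± 0.10 (SE), adjusted p = 0.495, limma). Gusb, the beta-glucuronidase, was at 24.5, 24.7 and 26.02 CPM in chow WT and 30.5, 28.7 and 33.3 CPM in HFCF WT (0.30 ± 0.07 (SE), adjusted p = 0.0143, limma). The Gusb call was lost without chow WT replicate 1 (0.28, adjusted p = 0.0529) or HFCF WT replicate 3 (0.24, adjusted p = 0.0599). Gusb in livers labelled HuRHep-/- was at 31.9, 28.5 and 31.5 CPM on chow and 32.2, 33.5 and 35.7 CPM on HFCF, without overlap (0.14 ± 0.07 (SE), adjusted p = 0.148, limma), and was called there under upper-quartile scaling (0.22, adjusted p = 0.0385, limma). Hexa, the alpha subunit of beta-hexosaminidase, rose in livers labelled HuRHep-/- (0.33 ± 0.12 (SE), adjusted p = 0.041, limma), a call that 6 of 12 fits without 1 library kept, with log2 fold changes from 0.24 (without HFCF replicate 3 of that label, adjusted p = 0.149) to 0.41. It was also lost without chow replicate 2 or 3 (0.30 and 0.28) or HFCF replicate 1 (0.36) of that label, and without chow WT replicate 1 or 3 (0.33 for both), and with no filter on low counts (0.31, adjusted p = 0.0587, limma). Gaa, the acid alpha-glucosidase of glycogen breakdown, and Mcoln1, the lysosomal calcium channel, were called in neither genotype, with values of 0.13, adjusted p = 0.295 and -0.10, adjusted p = 0.48 in WT and -0.22, adjusted p = 0.0575 and -0.22, adjusted p = 0.0787 in livers labelled HuRHep-/- (limma). Gaa was close to the threshold in the latter, where 4 of 12 fits without 1 library (adjusted p from 0.0361) and the fit on the 6 libraries of that label (-0.22, adjusted p = 0.0344, limma) called it lower; for Mcoln1, 1 of 12 did.

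Among the pump subunits, Atp6v0d2 rose with the diet in livers labelled HuRHep-/-. It was at 2.32, 2.17 and 1.39 CPM on chow and 3.76, 4.25 and 7.08 CPM on HFCF (1.33 ± 0.36 (SE), adjusted p = 0.0139, limma), without overlap. The call was lost without chow replicate 3 (1.10, adjusted p = 0.0572) or HFCF replicate 3 (1.06, adjusted p = 0.0573) of that label. In WT, Atp6v0d2 was at 1.68, 1.60 and 2.06 CPM on chow and 1.32, 2.04 and 3.94 CPM on HFCF, with overlap and a wide spread (0.31 ± 0.36 (SE), adjusted p = 0.568, limma). Atp6v1c1, a stalk subunit that regulates assembly of the pump, was at 40.99, 40.6 and 44.1 CPM on chow and 33.3, 35.2 and 36.9 CPM on HFCF in livers labelled HuRHep-/- (-0.25 ± 0.08 (SE), adjusted p = 0.0269, limma). Without chow replicate 3 or HFCF replicate 1 or 2 of that label its log2 fold change was -0.22, -0.21 and -0.26, with adjusted p-values of 0.0932, 0.0983 and 0.0619, and under upper-quartile scaling it was -0.17 (adjusted p = 0.076, limma). WT livers had 41.8, 34.3 and 37.4 CPM of Atp6v1c1 on chow and 34.2, 38.5 and 36.2 CPM on HFCF.

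Atp6v0d1 was at 83.4, 82.8 and 83.3 CPM on chow and 75.9, 76.95 and 72.9 CPM on HFCF in livers labelled HuRHep-/- (-0.14 ± 0.05 (SE), adjusted p = 0.0385, limma), a small difference between tight groups. It held in 5 of 12 fits without 1 library, with log2 fold changes from -0.16 to -0.12 and adjusted p-values up to 0.115. The call was lost without any 1 of the 6 livers labelled HuRHep-/- and without chow WT replicate 3, and under upper-quartile scaling its log2 fold change was -0.07 (adjusted p = 0.307). In WT, Atp6v0d1 was at 81.5, 81.96 and 80.5 CPM on chow and 77.96, 82.6 and 83.9 CPM on HFCF. Atp6v0c, the subunit with the highest level per length, was at 179, 156 and 178 CPM in chow WT, 161, 169.5 and 186 CPM in HFCF WT, 184, 179 and 203 CPM in chow livers labelled HuRHep-/- and 184, 176 and 184 CPM in HFCF livers labelled HuRHep-/-. All 4 groups of Atp6v0c overlapped, and its differences with diet were 0.01 ± 0.08 (SE), adjusted p = 0.958 in WT and -0.05 ± 0.08 (SE), adjusted p = 0.603 in livers labelled HuRHep-/- (limma). Reads of Atp6v0c, Atp6v1f and Atp6v1g1 are less certain than the rest, since 12.9%, 17.1% and 24.0% of their 31-base words occur in other genes.

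The other 9 subunits, Atp6v0a1, Atp6v0b, Atp6v1a, Atp6v1b2, Atp6v1d, Atp6v1e1, Atp6v1f, Atp6v1g1 and Atp6v1h, were called in no comparison, apart from the alternatives given above for Atp6v0a1 and Atp6v1e1. Their differences with diet ranged from -0.22 (Atp6v1e1, adjusted p = 0.0988) to 0.31 (Atp6v0a1, adjusted p = 0.0653, limma) in WT. For Atp6v1a, a catalytic subunit, the 95% interval ran over -0.18 to 0.15 in WT and over -0.30 to 0.04 in livers labelled HuRHep-/-. The summed level of the 13 subunits was 732 to 839.6 CPM in chow WT, 795 to 872 CPM in chow livers labelled HuRHep-/-, 747 to 815 CPM in HFCF WT and 779 to 808 CPM in HFCF livers labelled HuRHep-/-.

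Tfeb, the transcription factor of the element described above, was at 11.3, 10.5 and 12.2 CPM in chow WT, 8.99, 9.26 and 10.2 CPM in chow livers labelled HuRHep-/-, 10.2, 8.91 and 9.82 CPM in HFCF WT and 10.02, 9.12 and 9.51 CPM in HFCF livers labelled HuRHep-/-. The chow WT libraries were the highest for Tfeb and did not overlap those of chow livers labelled HuRHep-/- or of HFCF WT. None of its differences was called, the closest being that with diet in WT (-0.23 ± 0.09 (SE), adjusted p = 0.0827, limma).

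Markers of other liver cells moved with the diet as well. The summed level of 15 macrophage and Kupffer cell markers was 268 to 344 CPM in chow WT, 336 to 501 CPM in chow livers labelled HuRHep-/-, 418 to 654 CPM in HFCF WT and 602 to 881 CPM in HFCF livers labelled HuRHep-/-. Of these 15 genes, 5 rose with HFCF in WT, where 11.3% of all genes tested rose and 12.9% fell, and 10 rose and 1 fell in livers labelled HuRHep-/-, where 19.7% rose and 19.1% fell. Markers of lipid-associated macrophages, 9 genes with Gpnmb and Trem2 among them, summed to 93.2 to 151 CPM in chow WT, 138 to 214 CPM in chow livers labelled HuRHep-/-, 85.1 to 247 CPM in HFCF WT and 292 to 490.1 CPM in HFCF livers labelled HuRHep-/-. Here 4 rose and 1 fell in WT, and 8 rose and 1 fell in livers labelled HuRHep-/-. On chow 8 of these 9 genes passed the filter, so the counts may include a rise that the filter admitted only through the HFCF libraries. HFCF WT replicate 2 had the lowest sum of its group on both lists and on those of stellate cells and fibroblasts (274 CPM), cholangiocytes (39.2 CPM), endothelial cells and lymphocytes and neutrophils, as it had the lowest Ctss, Ctsk, Lgmn, Psap and Ctsd levels. All 10 stellate cell and fibroblast markers rose in livers labelled HuRHep-/-, and 3 of 10 in WT, while 7 and 8 of 12 hepatocyte markers fell in WT and in livers labelled HuRHep-/-. The 7 cholangiocyte markers summed to 35.8 to 79.6 CPM in chow WT, 47.7 to 78.4 CPM in chow livers labelled HuRHep-/-, 39.2 to 88.5 CPM in HFCF WT and 134 to 244 CPM in HFCF livers labelled HuRHep-/-, and all 6 that were tested rose in the latter genotype, with 0 called in WT (limma). Spp1 stands on both this list and that of lipid-associated macrophages, so the sums of these lists are not separate measures. Of 9 lymphocyte and neutrophil markers tested, 4 rose in livers labelled HuRHep-/- and 0 were called in WT, and of 8 endothelial markers 2 rose in livers labelled HuRHep-/- and 1 in WT (limma). On chow 7 of the lymphocyte and neutrophil markers passed the filter, so the same limit holds for that list. No macrophage marker was at 0 in any library. On HFCF the macrophage and Kupffer cell sums were higher in both genotypes. The lipid-associated sum of HFCF WT replicate 2 (85.1 CPM) was below every chow WT library. Ctss and Ctsk rose in both genotypes, while Lgmn and Atp6v0d2 were called in livers labelled HuRHep-/- and not in WT. On the same diet 2 cathepsins fell in WT and 5 in livers labelled HuRHep-/-, Ctsc (-0.45) among the latter. Grn was called with diet in neither genotype (0.10 in WT and -0.05 in livers labelled HuRHep-/-). The part of macrophages, and of the other cell types whose markers moved, in these differences was not tested.

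**Figure D4:**
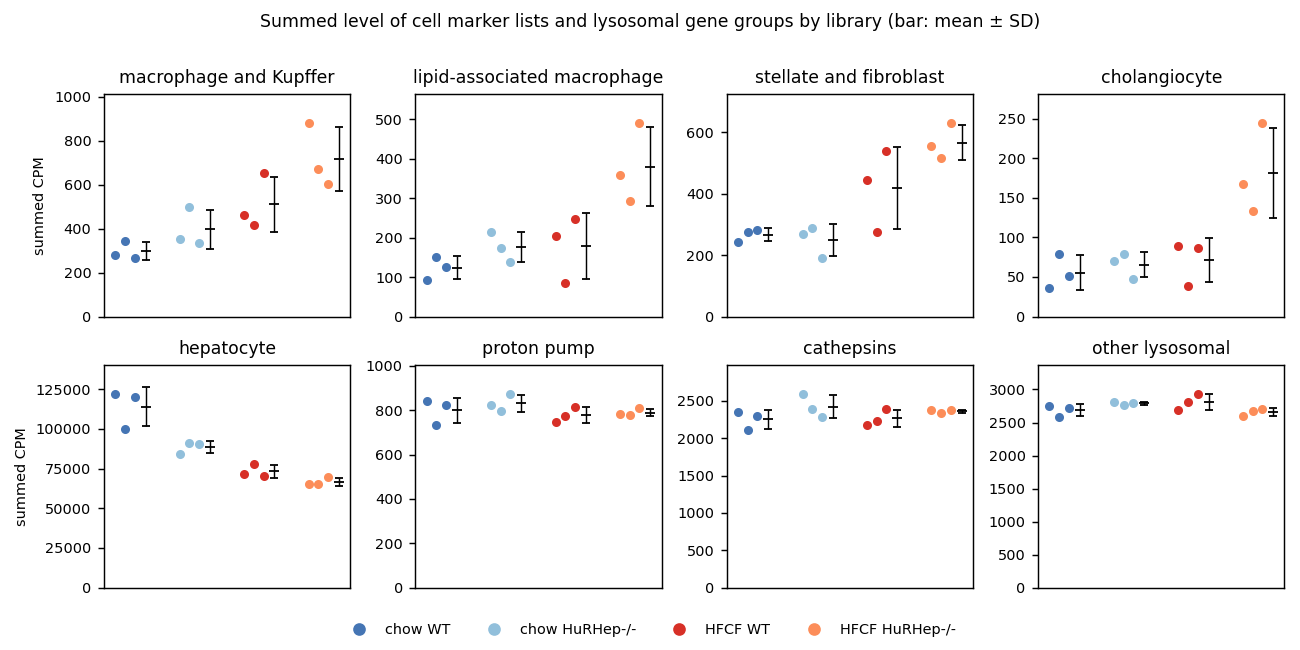
Summed CPM of 5 cell marker lists and of the 3 lysosomal gene groups in each of the 12 libraries, with mean and SD of the 3 livers; each axis starts at 0. Macrophage sums run from 268 CPM in chow WT to 881 CPM in HFCF livers labelled HuRHep-/-, while the sums of pump subunits lie between 732 and 872 CPM.

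Differences between genotypes were few. On chow, 1 of the 37 members was called higher and 0 lower in livers labelled HuRHep-/-, against 2.28% and 1.91% of the 13526 genes tested. At an unadjusted p under 0.05, 8 were higher and 2 lower, and limma with voom weights called 1 member in all. The share of all genes at that unadjusted threshold was not counted, so the 8 and 2 have no background here. The called gene was Grn, which encodes progranulin, the precursor of the granulins that act in lysosomes of macrophages and neurons. Grn was at 183, 169.6 and 194 CPM in chow WT and 245, 233 and 251 CPM in chow livers labelled HuRHep-/-, without overlap (0.43 ± 0.07 (SE), adjusted p = 0.0213, limma). The direction held without each library in turn, but the call was lost without chow WT replicate 1 (0.43, adjusted p = 0.0722) or replicate 3 (0.47, adjusted p = 0.0548) and without replicate 1 (0.41, adjusted p = 0.0799) or 2 (0.45, adjusted p = 0.0867) of the chow livers labelled HuRHep-/-. On HFCF, Grn was at 174, 202 and 212 CPM in WT and 232, 216 and 259 CPM in livers labelled HuRHep-/- (0.25 ± 0.10 (SE), adjusted p = 0.144, limma), again separate but not called. The largest estimate on chow was that of Ctsc (0.45 ± 0.14 (SE), adjusted p = 0.105, limma), whose groups did not overlap and which 1 of 6 fits without 1 library called, that without replicate 3 of the livers labelled HuRHep-/- (0.60, adjusted p = 0.0232, limma). Next to Grn on chow, the members with the lowest adjusted p were Gusb (0.29, adjusted p = 0.0634), Ctsd (-0.24, adjusted p = 0.0921), Ctsz (0.33, adjusted p = 0.0922) and Atp6v1a (0.27, adjusted p = 0.0972, limma), none of which passed. Of the 37 estimates on chow 27 were above 0, with a median of 0.11. Over all genes 6897 of 13526 were above 0, with a median of 0.005. All 15 macrophage and Kupffer cell markers also had estimates above 0, with a median of 0.41, while 0 of them were called by limma, and 7 of 8 lipid-associated macrophage markers did (median 0.49), with 1 called. The part of these cells in the lysosomal estimates was not tested.

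On HFCF, 0 members were called higher and 1 lower in livers labelled HuRHep-/-, against 2.85% and 3.95% of the 14295 genes tested. At an unadjusted p under 0.05, 4 were higher and 5 lower, and with voom weights 1 was called. Here too the share of all genes at the unadjusted threshold was not counted. Lamp2 was the called gene, with 459, 523 and 491 CPM in HFCF WT and 374, 408 and 369 CPM in HFCF livers labelled HuRHep-/- (-0.37 ± 0.08 (SE), adjusted p = 0.0407, limma). Under upper-quartile scaling the call was lost (-0.32, adjusted p = 0.0514, limma). The groups did not overlap, yet none of the 6 fits without 1 library kept the call, with log2 fold changes from -0.41 to -0.32 and adjusted p-values from 0.0564 (without HFCF WT replicate 2) to 0.153 (without replicate 1 of the HFCF livers labelled HuRHep-/-). On chow the corresponding value was -0.15 ± 0.07 (SE), adjusted p = 0.262 (limma). Ctss (0.80, adjusted p = 0.1) and Atp6v0d2 (1.12, adjusted p = 0.127, limma) had the largest estimates on HFCF and were not called. Both were called in 1 of 6 fits without 1 library, that without HFCF WT replicate 3 (1.11, adjusted p = 0.0265 for Ctss and 1.54, adjusted p = 0.0404 for Atp6v0d2, limma). The lowest values were 0.53 for Ctss, without HFCF WT replicate 2, and 0.76 for Atp6v0d2, without HFCF WT replicate 1. The 95% interval for Ctss was 0.19 to 1.42 and that for Atp6v0d2 was 0.15 to 2.08, so these data limit their genotype difference only loosely. Of the 37 member estimates on HFCF 20 were above 0 and 17 below, with a median of 0.006, beside -0.0017 over all genes. Of the 15 macrophage and Kupffer cell markers, 14 had estimates above 0 on HFCF (median 0.59) with 0 called, and of 9 lipid-associated macrophage markers 8 did (median 1.12) with 1 called. All 6 cholangiocyte markers tested did too (median 1.41), with 2 called, as did 9 of 9 lymphocyte and neutrophil markers (median 0.87) and 9 of 10 stellate cell and fibroblast markers (median 0.46), with 0 called on either list by limma. The part of these cells in the lysosomal estimates was not tested.

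**Figure D5:**
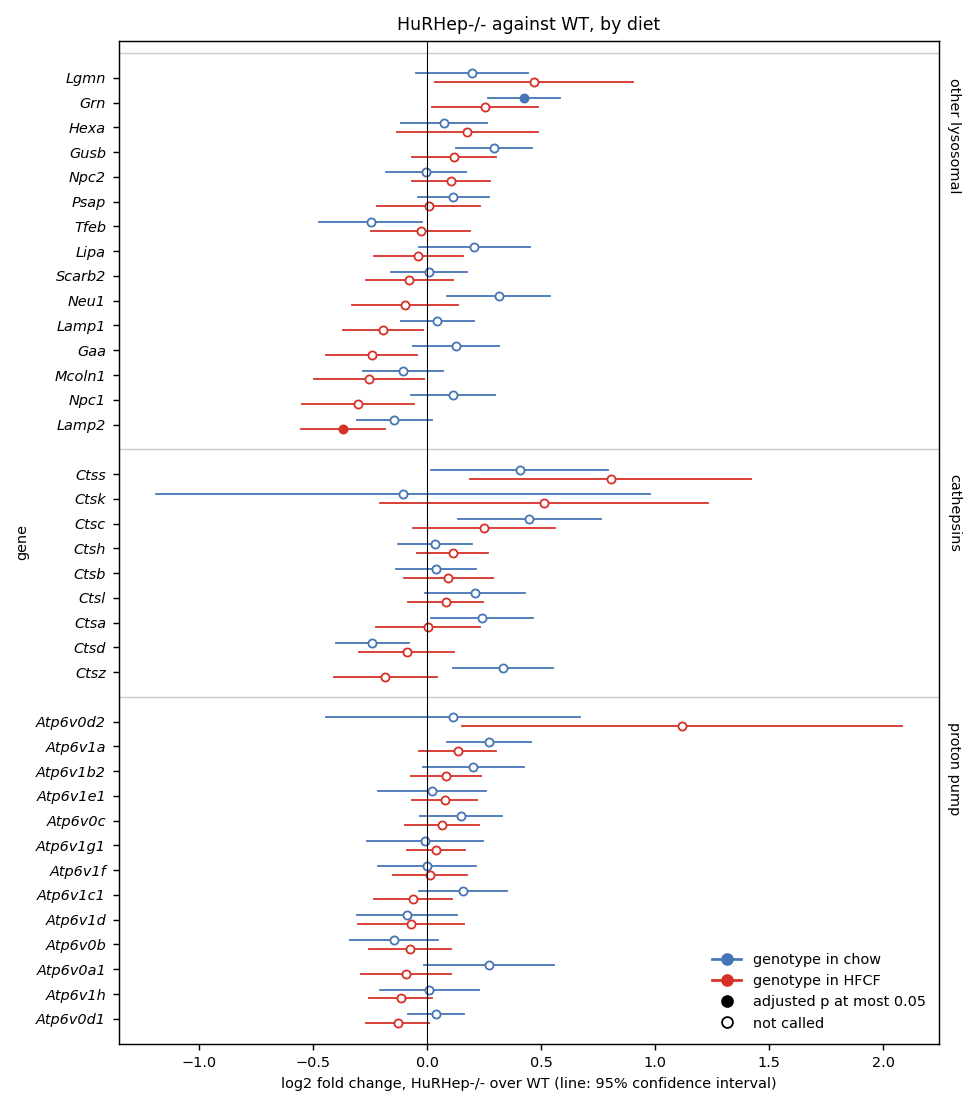
Log2 fold change of livers labelled HuRHep-/- over WT with its 95% confidence interval for each of the 37 genes, on chow and on HFCF, with called genes as filled points. Grn on chow (0.43) and Lamp2 on HFCF (-0.37) are the called values, and the intervals of Atp6v0d2 and Ctsk are the widest.

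Whether the effect of the diet differed between genotypes was tested as an interaction over the 12 libraries. By limma, 0 of the 37 members were called, higher or lower, as were 0% of all 14535 genes, and voom weights called 0 members. At an unadjusted p under 0.05 there were 5 members, Ctsz (-0.49, adjusted p = 0.198), Gaa (-0.35, adjusted p = 0.242), Npc1 (-0.39, adjusted p = 0.249), Neu1 (-0.39, adjusted p = 0.277) and Lamp1 (-0.22, adjusted p = 0.341, limma), each more negative in livers labelled HuRHep-/-. All genes were not counted at that unadjusted threshold, so the 5 have no background. The 95% interval was -0.81 to -0.18 for Ctsz and -0.10 to 2.15 for Atp6v0d2, whose estimate of 1.02 was the largest. Members called in 1 genotype alone, such as Ctsz, Lgmn and Gusb, were therefore not shown to respond differently in the other.

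The wider set of lysosomal genes, 99 of which were listed in both tables, gave the following counts. On chow, 7 of 91 tested genes were higher and 1 lower in livers labelled HuRHep-/-, against 2.28% and 1.91% of all genes, and on HFCF 3 of 94 were higher and 6 lower, against 2.85% and 3.95%. With HFCF, 19 of 94 rose and 10 fell in WT, against 11.3% and 12.9% of all genes, and 22 rose and 27 fell in livers labelled HuRHep-/-, against 19.7% and 19.1%. Only 91 were tested on chow, so both counts of rises include genes that the filter admitted through the HFCF libraries where they were high. Those genes are given below by counts alone. Galns, the sulfatase of keratan sulfate breakdown, was called higher by genotype on chow (0.82 ± 0.10 (SE), adjusted p = 0.0105) and on HFCF (0.90 ± 0.12 (SE), adjusted p = 0.0188, limma). On chow it was at 8.23, 9.43 and 8.37 CPM in WT and 15.7, 16.1 and 14.03 CPM in livers labelled HuRHep-/-, and on HFCF at 6.04, 5.34 and 7.18 and 10.9, 11.8 and 12.1 CPM. Also among the largest called genotype differences were, on chow, Sort1, a sorting receptor (0.83, adjusted p = 0.0229), Dpp7, a dipeptidyl peptidase (0.67, adjusted p = 0.00722), and Glb1, the beta-galactosidase (0.43, adjusted p = 0.0283, limma). On HFCF they were Atp6v0e2, a small V0 subunit isoform (1.44, adjusted p = 0.0137), Mfsd8, a lysosomal membrane transporter (-0.63, adjusted p = 0.0273), and Slc17a5, the sialic acid exporter (-0.46, adjusted p = 0.0258, limma).

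With the diet, Cd63 (1.54, adjusted p = 0.0404), Cd68 (1.25, adjusted p = 0.00386) and Laptm5 (1.10, adjusted p = 0.00826, limma) were among the largest called genes of that wider set in WT. In livers labelled HuRHep-/- so was Cd63 (2.03, adjusted p = 0.00785, limma). Ctse, an aspartic protease, Atp6v0a4, a pump isoform, and Mcoln2 had few counts on chow. They passed the filter only through the HFCF libraries where they were high, so their counts are given with no fold, rank or test. Ctse had 2 to 4 counts per library in chow WT and 10 to 40 in HFCF WT, and 3 to 5 and 25 to 41 in livers labelled HuRHep-/-. In livers of that label Atp6v0a4 had 0 to 8 counts on chow and 12 to 28 on HFCF, and Mcoln2 had 4 to 9 and 18 to 35. Cd63 and Cd68 also stand on the macrophage lists above.

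HuR binds AU-rich elements, so the pentamer ATTTA was counted in the longest annotated 3′ untranslated region of each member. It was present in 24 of the 37 members (64.9%), with a median of 0.917 per kb, and in 68.2% of 16113 genes, with a median of 1.25 per kb. Of the 13 pump subunits 12 held it, most often Atp6v1d with 9 copies, against 4 of 9 cathepsins and 8 of 15 other proteins. Of the 2 members called by genotype, Lamp2 held 5 copies and Grn 0. A count of letters does not show binding.

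After subtraction of group means, the median Pearson correlation of log2 CPM over the 12 libraries was 0.39 over 78 pairs of pump subunits, 0.25 over 36 pairs of cathepsins and 0.09 over 105 pairs of other proteins. Between groups it was 0.26 over 195 pairs of other proteins with pump subunits, 0.20 over 135 pairs of cathepsins with other proteins and 0.17 over 117 pairs of cathepsins with pump subunits, so pairs within a group were not always more alike than pairs between groups. These are descriptions of 12 libraries whose values share one scaling per library, and they were not tested.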

How the data were processed

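RNA of 12 livers was sequenced from stranded NEBNext libraries, with RNA integrity numbers above 6.0 per the labels. The authors deposited raw read counts per gene, not normalized, as text with comma separators, in 2 tables made in CLC Genomics Workbench (alignment to GRCm38.p6 with reverse strand setting, stated for the chow livers). Both tables were read by gene name and identifier, and the 37 members and all other lists were chosen with earlier results of these data known. The text was converted to whole numbers, and limma 3.58.1 (R 4.3.3) was run on log2 CPM, with TMM factors (trims 0.3 and 0.05), a pseudocount of 0.5, and a variance trend. A gene was tested if it reached a CPM worth 10 counts in 3 or more libraries and 15 counts in total, which all 37 members did in each fit. Genotype was fitted within each diet (6 libraries), and diet and interaction over 12. The method was tested on simulated data. Genes described in full were, per comparison, up to 6 called members with the largest change in each of the 3 groups, the highest gene per exon length of each group, and Tfeb. Beyond the members the 4 largest called were taken, of which Ctse, Atp6v0a4 and Mcoln2 are given by counts alone. Replicates of a group differed by more than sampling noise, so no library was merged. Alternatives were other scalings (RLE, upper quartile), filters, a pseudocount of 2, voom weights, a replicate block, other sample sets and leaving out each library. Same-numbered libraries did not deviate together in all pairs (correlations from -0.135 to 0.188), so numbers were not treated as pairs. Exon lengths and 3′ untranslated regions came from GENCODE on GRCm38, and promoter windows from RefSeq.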

Additional observations from a re-analysis of the deposited data

How the results depend on the processing

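No called difference of a member changed sign under any alternative run. Required as DEGs, members numbered 0 in either genotype comparison, 3 higher and 0 lower for diet in WT, and 4 higher and 2 lower for diet in livers labelled HuRHep-/-. Upper-quartile scaling left 0 members lower by genotype on HFCF and 7 lower with diet in livers labelled HuRHep-/-. A fit on all 12 libraries gave 2 members higher by genotype on chow, Gusb (0.29, adjusted p = 0.0398, limma) beside Grn. The replicate block gave 2 members higher by genotype on HFCF, Atp6v0d2 (1.12, adjusted p = 0.0285) and Ctss (0.80, adjusted p = 0.0494, limma); the libraries share a number alone, and with diet the block ended the calls of Lamp2 in WT (adjusted p = 0.071) and Atp6v0d1 in livers labelled HuRHep-/- (adjusted p = 0.0512, limma). Leaving out each library in turn gave 0 to 2 members higher by genotype on chow, 0 to 2 higher and 0 lower on HFCF, 4 to 9 higher with diet in WT, and 7 to 14 lower with diet in livers labelled HuRHep-/-. Genotype calls over all genes also fell, from 566 to 9 without replicate 2 of the chow livers labelled HuRHep-/-. On HFCF they fell from 971 to 28 without replicate 1 of that label. Named genes beyond the members were not followed in these fits. With 6 libraries of 1 genotype, Ctsb, Ctsk and Lamp2 were not called for diet in WT (adjusted p = 0.0816, 0.053 and 0.138, limma). In the 6 libraries labelled HuRHep-/-, Ctsc and Atp6v0d1 were not called for diet (adjusted p = 0.0637 and 0.0533) and Gaa was (adjusted p = 0.0344, limma). Without HFCF WT replicate 3, Atp6v0d2 and Ctss were called by genotype on HFCF. Without HFCF WT replicate 2, Hexa was called in WT (adjusted p = 0.0247) and Gaa, Lamp1 and Mcoln1 in livers labelled HuRHep-/- (adjusted p = 0.0361, 0.0425 and 0.0464, limma). The interaction called 0 members under each alternative. For the calls that changed, the cause was not tested. Ctsk had 7 to 71 counts per library, and each group had 3 livers.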
